A study of Mus musculus with 2 samples.

Results

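The mir-26 family was examined as 3 microRNA genes, Mir26a-1, Mir26a-2 and Mir26b, among the 1973 genes counted in small RNA of the embryonic mouse midbrain. The members were chosen by symbol, as the mouse genes of this family, each lying in an intron of a Ctdsp gene. The tissue came from embryos of strain B6NCrl, of both sexes, at embryonic day 10.5, and the labels name no allele or treatment. RNA of fewer than 30 nt from pools of 69 embryos (replicate 1) and 51 embryos (replicate 2) gave 1 library per pool and 1 group in all, so there was no contrast between conditions. A pool mixes cell types, so that fewer cells of a type and less RNA per cell cannot be told apart.

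MicroRNAs are cut from hairpin precursors, and the 2 arms of a hairpin (5p and 3p) can each give a mature strand that guides Argonaute to messenger RNAs through its seed, bases 2 to 8. The miR-26 strand is widely expressed in vertebrate tissues and is known to repress, among others, Ezh2, the methyltransferase of Polycomb complex 2. Its host genes encode small phosphatases that act on the C-terminal domain of RNA polymerase II and assist the repressor REST in holding neuronal genes silent outside neurons. In zebrafish, miR-26b is known to repress the ctdsp2 transcript in which it is embedded.

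The sequences are shown first because they set which reads can be told apart by gene. The mature 5p strands from RefSeq (GRCm38.p6, the build that mm10 denotes) are given 5′ to 3′, with the seed in capitals.

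miR-26a-5p (from Mir26a-1 and from Mir26a-2): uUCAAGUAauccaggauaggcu

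miR-26b-5p (from Mir26b): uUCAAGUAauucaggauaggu

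The 3 genes share 1 seed in this arm, and no other microRNA gene of the RefSeq table had a mature strand with it. The 5p strands of Mir26a-1 and Mir26a-2 were identical over all 22 bases. Against them the strand of Mir26b differed by C11U and C21U (positions from the 5′ end, the base of miR-26a first) and was 21 bases long, so that 19 of 21 compared positions were the same. The 3p strands were less alike.

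miR-26a-1-3p: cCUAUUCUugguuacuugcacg

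miR-26a-2-3p: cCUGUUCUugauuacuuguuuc

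miR-26b-3p: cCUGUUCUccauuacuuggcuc

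Each of these 3 strands was found at 1 locus among the 2202 microRNA precursors of GENCODE M21. Mir26a-1 and Mir26a-2 differed here at 6 of 22 positions, the first of them A4G within the seed. Mir26a-2 and Mir26b differed at 4 positions, U9C, G10C, U19G and U20C, and hence had the same 3p seed. That seed also occurred in the 3p strands of Mir6932 (1 read in each library) and Mir7039 (1 and 7 reads). In the 3p arm it was therefore Mir26a-2 and Mir26b that were seed partners, and Mir26a-1 stood alone.

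The whole precursors are printed to show where the genes can be told apart, with both mature arms in capitals.

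Mir26a-1: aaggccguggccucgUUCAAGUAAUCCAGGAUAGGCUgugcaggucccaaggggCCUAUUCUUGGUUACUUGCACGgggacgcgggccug

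Mir26a-2: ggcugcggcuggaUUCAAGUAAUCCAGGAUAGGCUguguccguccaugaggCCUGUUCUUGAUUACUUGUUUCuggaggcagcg

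Mir26b: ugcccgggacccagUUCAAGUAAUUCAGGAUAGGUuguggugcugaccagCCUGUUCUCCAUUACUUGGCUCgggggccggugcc

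The longest stretch that Mir26a-1 and Mir26a-2 share is 25 bases, uucaaguaauccaggauaggcugug, which takes in the 5p strand and the first 3 bases of the loop. Of the windows of 20 bases, 6 of 71 in Mir26a-1 and 6 of 65 in Mir26a-2 occurred in the other gene and in no further precursor. None of the 66 windows of Mir26b occurred in another precursor, and its longest stretch in common with Mir26a-1 was 11 bases and with Mir26a-2 10 bases. A read of miR-26a-5p thus has 2 sources that it cannot distinguish, and a read of miR-26b-5p or of a 3p strand has 1. The predicted minimum free energy of the hairpin was -49.4 kcal/mol for Mir26a-1, -44.5 for Mir26a-2 and -43.5 for Mir26b, with 34, 32 and 33 base pairs.

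**Figure D1:**
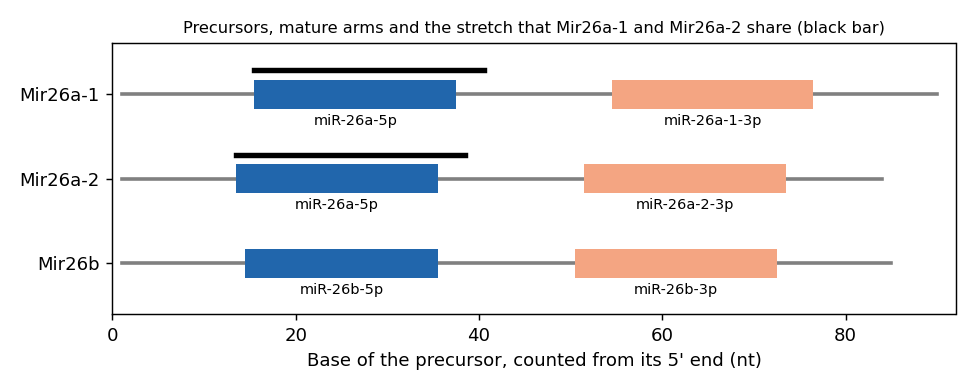
The 3 precursors by base from the 5′ end (nt), with the 5p arm in blue and the 3p arm in orange. The black bar marks the 25 bases that Mir26a-1 and Mir26a-2 have in common, which cover the 5p arm, and Mir26b has no such bar.

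All 3 genes lie on the strand of their host, inside an intron of every annotated host transcript that spans them. For Mir26a-2, 2 shorter Ctdsp2 transcripts start at the last base of the precursor, which thus overlaps their first exon by 1 base, and no exon overlapped the other members. Mir26b (ENSMUSG00000065468.1, chr1:74394310-74394394, mm10, plus strand) lies in intron 4 of Ctdsp1, which is 564 bp long. Mir26a-2 (ENSMUSG00000065430.1, chr10:126995530-126995613, plus strand) lies in intron 5 of Ctdsp2, of 1946 bp. Mir26a-1 (ENSMUSG00000065513.1, chr9:119031796-119031885, plus strand) lies in intron 5 of Ctdspl, of 3283 bp. The distance from the precursor to the downstream exon was similar for Mir26b (245 bp) and Mir26a-2 (241 bp) and longer for Mir26a-1 (1650 bp), while the upstream exon was 234, 1621 and 1543 bp away. The nearest other counted microRNA gene was 2827 bp from Mir26a-2 (Mir546), 187690 bp from Mir26b and 1032366 bp from Mir26a-1, and no other annotated gene overlapped any of the 3.

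**Figure D2:**
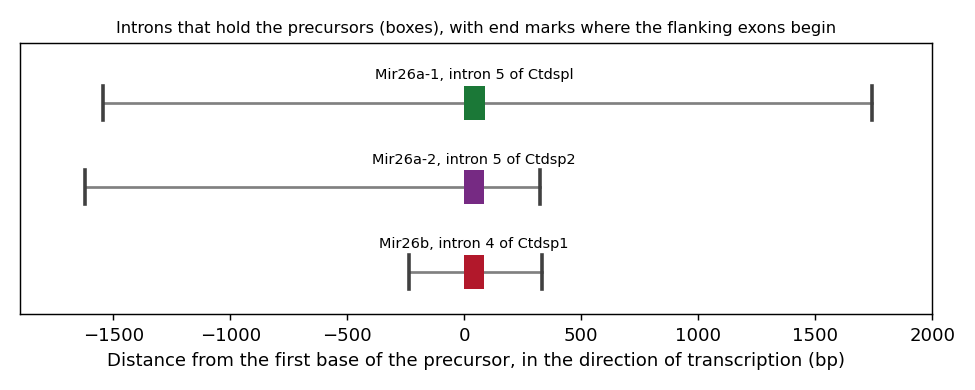
The introns of Ctdspl, Ctdsp2 and Ctdsp1 drawn around the precursors, as the distance in bp from the first base of the precursor along the direction of transcription, with coloured boxes for the precursors and end marks where the flanking exons begin. The intron around Mir26b is the shortest, at 564 bp, against 1946 and 3283 bp.

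The libraries held 7810040 and 9423767 reads, of which 3297835 and 3682410 were assigned to microRNA genes. Reads that mapped to several places, 2412710 and 2775444, are given apart from the genes. CPM denotes reads per 1000000 gene-assigned reads. Among the marker lists of cell types, the endothelial Mir126a had 26449 and 30780 CPM and the 3 counted neural progenitor genes 21383 and 25420 CPM together, nearly all of it Mir92b (21245 and 25352), while Mir9-3 of the same list had 137 and 66.8. The 6 mesenchyme genes had 16222 and 13241, the 7 epithelium genes 3397 and 4092, the 3 counted leukocyte genes 1270 and 1446 and the 3 erythroid genes 404 and 374. Of these last, Mir451a held 354 and 295 CPM and was called lower in replicate 2 by the exact binomial test between the libraries, and Mir144 and Mir486 were called higher. That test called 49.7% of all 485 genes tested, 23.1% higher and 26.6% lower, so 3 calls say little about the erythroid list. All 6 mesenchyme genes were also called, each lower, and all 7 epithelium genes, 5 higher and 2 lower. The 5 counted muscle genes had 49.7 and 55.7, with Mir1a-1 and Mir133b at 0 reads in both libraries, the 3 neuron genes 24.0 and 19.6, and the hepatocyte Mir122 5.76 and 15.2. Both arms of Mir9-2, Mir9-3, Mir199a-1 and Mir199a-2 are found at other loci. The arms of the 3 neuron genes and of Mir143, Mir145a, Mir486 and Mir122 could not be classed. Mir142 of the leukocyte list and Mir1a-2 of the muscle list are not among the counted genes. Of the leukocyte sum, Mir142b held 682 and 865 CPM. A low marker value does not show that a cell type was absent. Multiply mapped reads are given apart, which can lower the markers with repeated or unclassed arms. The arms of Mir133b, Mir206, Mir208a and Mir208b were each found at 1 locus, so that limit is not known to hold for them. The part of these cell types in the values of the mir-26 genes was not tested.

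Almost every read counted for the family belonged to Mir26b. It had 84752 reads in replicate 1 and 104620 in replicate 2, or 25699 and 28411 CPM. Both pools were alike in this, and the mean was 27055 ± 1917 CPM (SD, n = 2), which made Mir26b the gene of rank 8 among the 1973. Mir126a of rank 7, known from endothelium, was above it in both libraries and Mir92b of rank 9, known from neural progenitors, below it in both, but the gap to Mir126a (28615 ± 3062 CPM) was smaller than the spread between the replicates.

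Mir26a-2 had 96 and 100 reads, or 29.1 and 27.2 CPM. With exact 95% Poisson intervals of 23.6 to 35.5 CPM and 22.1 to 33.0 CPM, the libraries overlapped within counting error. The mean of 28.1 ± 1.38 CPM (SD, n = 2) gave rank 287, between Mir3475 (29.0 ± 5.30) and Mir190b (27.4 ± 6.17), from which it did not differ beyond their spread.

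Mir26a-1 had the fewest reads, 20 and 30, or 6.06 and 8.15 CPM, with intervals of 3.70 to 9.37 and 5.50 to 11.6. Its mean of 7.11 ± 1.47 CPM (SD, n = 2) gave rank 353. It did not differ beyond the spread from its neighbours Mir297a-2 (7.40 ± 4.89) and Mir124a-3 (7.04 ± 3.10), the latter a copy of the neuronal miR-124. These intervals cover counting error only, as molecules were not identified and reads of 1 molecule can recur.

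The order Mir26b, Mir26a-2, Mir26a-1 was the same in both libraries, and the values of the 3 genes did not overlap. Mir26b held 99.87% ± 0.00889 of the family's reads (SD, n = 2), Mir26a-2 0.104% ± 0.0125 and Mir26a-1 0.0261% ± 0.00359. Mir26b exceeded Mir26a-2 by 883-fold in replicate 1 (95% counting interval 723 to 1078) and 1046-fold in replicate 2 (860 to 1273). It exceeded Mir26a-1 by 4238-fold (2734 to 6569) and 3487-fold (2438 to 4988). The copies of miR-26a differed less from each other, by 4.80-fold (2.96 to 7.77) and 3.33-fold (2.22 to 5.01). These folds compare reads assigned to 1 place. Reads of miR-26a-5p that map to both copies are in neither value, so the folds do not compare the amounts of miR-26a and miR-26b in the tissue.

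How many of the multiply mapped reads were miR-26a-5p is not given by the files and was not tested. The multiply mapped reads were many beside the family: the reads of Mir26b equalled 3.51% and 3.77% of them, and those of Mir26a-2 0.00398% and 0.00360%. The counts are per gene and do not separate the arms, so whether the 20 to 100 reads of the miR-26a genes are 3p strands, or 5p reads that run past the shared 25 bases, was not tested either. The 3 genes together made up 2.71% ± 0.192 (SD, n = 2) of what was assigned to genes.

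**Figure D3:**
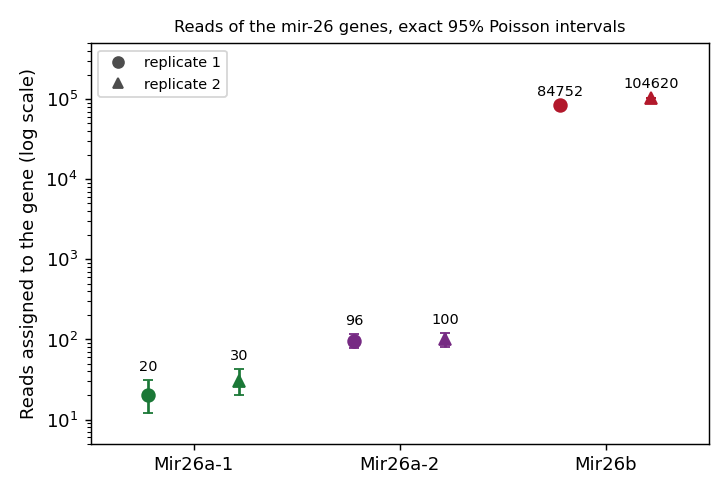
Reads assigned to each mir-26 gene in each library on a log scale, with exact 95% Poisson intervals. Mir26b lies at 84752 and 104620 reads, Mir26a-2 at 96 and 100 and Mir26a-1 at 20 and 30, without overlap between genes.

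All reads of the family lay on the strand of the genes, as far as the strand columns of the files can be read. The third count column, taken as the opposite strand, held 0 of 84752 and 0 of 104620 reads for Mir26b, which allows a share of up to 0.00354% and 0.00287%. It also held 0 reads for Mir26a-2 and for Mir26a-1, where the counts of replicate 1, the lower ones, allow up to 3.13% and 15.0%. Over all genes the second column held 97.4% and 97.3% of the reads.

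The replicates of Mir26b were closer to each other than those of 70 of the 106 other genes of mean CPM 1000 or more. The log2 ratio of replicate 2 over replicate 1 was 0.15 (ratio 1.11, 95% counting interval 1.10 to 1.12), against an SD of log2 ratios of 0.42 over all 107 such genes, whose median was 0.04. An exact binomial test of the libraries against each other called Mir26b higher in replicate 2 (adjusted p = 1.4e-110, Benjamini-Hochberg over 485 genes). It takes each read as independent and compares the libraries, not conditions, so that at this depth it calls a difference far below the spread between genes. Mir26a-1 had a log2 ratio of 0.42 (interval -0.39 to 1.25, adjusted p = 0.45 by the exact test) and Mir26a-2 one of -0.10 (interval -0.50 to 0.31, adjusted p = 0.76 by the exact test). With 20 to 100 reads these intervals do not tell whether the miR-26a copies moved with Mir26b. In all, 1 of the 3 members was called, where the test called 49.7% of the 485 genes, 23.1% higher and 26.6% lower in replicate 2.

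**Figure D4:**
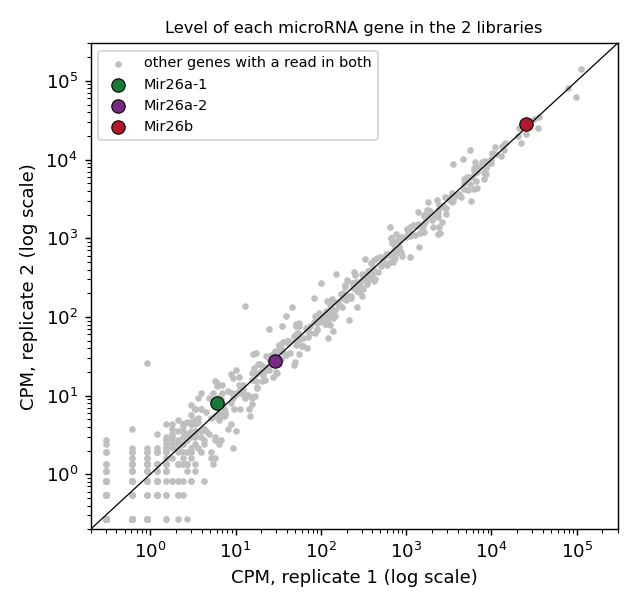
CPM of each gene with a read in both libraries, replicate 1 against replicate 2, on log scales with the line of equal values. The 3 mir-26 genes lie close to the line, Mir26b at 25699 and 28411 CPM and the other members at 29.1 and 27.2 and at 6.06 and 8.15 CPM.

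The genes most like Mir26b between the 2 libraries were Mir323, Mir130b, Mir467e, Mir872 and Mir341, with log2 ratios of 0.13 to 0.16. Likeness was the absolute difference in log2 ratio from Mir26b, over 2 libraries and among the 106 other genes of mean CPM 1000 or more. It was at most 0.02 for these 5, and 28 of the 106 lay within 0.1, so a ratio from 2 libraries separates few genes.

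Mir26b was also set beside the other microRNAs that lie in introns of coding genes on the same strand, of which 672 were counted. They made up 36.9% and 38.9% of the reads assigned to genes. Mir26b ranked 3 among them, after Mir335 in Mest (127345 ± 22571 CPM) and Mir126a, and before Mir99b in Spaca6 (23296 ± 2997 CPM). Mir26a-2 and Mir26a-1 ranked 97 and 129.

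Other microRNA families also sit in introns of related coding genes, and 11 of their genes were compared. In the mir-103/107 family, which lies in the pantothenate kinase genes and is known for a role in metabolism, the arrangement was like that of mir-26. Mir107 in Pank1, with no arm found elsewhere, had 4823 and 4280 reads (1312 ± 212 CPM). Mir103-2 in Pank2 had 400 and 310 reads (103 ± 26.2 CPM) and Mir103-1 in Pank3 33 and 13 (6.77 ± 4.58 CPM), and these have an identical 3p strand. The order with the single-locus gene on top was thus the same in both families, with a smaller gap for mir-103/107.

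In the mir-128 and mir-218 families both genes carry an arm found at the other locus, and the 11 hold no single-locus gene of these families. Outside the 11, the single-locus Mir7002 shares a seed with the mir-218 genes and had a mean of 0.559 CPM, against 90.0 for Mir218-2. Mir128-1 in R3hdm1 had 276 and 315 reads and Mir128-2 in Arpp21 59 and 46. Mir218-1 in Slit2 had 58 and 56 reads and Mir218-2 in Slit3 313 in each library. All 4 lay between 12.5 and 94.9 CPM in both libraries, a range that also holds Mir26a-2. Sharing no arm did not go with a high count in every family. Mir204 in Trpm3 had 252 ± 23.4 CPM, Mir211 in Trpm1, known from pigment cells, 13.0 and 137 CPM in the 2 libraries, and the cardiac Mir208a and Mir208b in the myosin genes Myh6 and Myh7 8.47 ± 0.457 and 33.9 ± 4.24 CPM. None of these 11 genes reached the level of Mir26b. Of the 11 the binomial test called 5, with 2 higher and 3 lower in replicate 2, a share near the 49.7% called over all genes tested (23.1% higher and 26.6% lower). Their median log2 ratio was -0.15, against -0.02 over all genes tested.

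**Figure D5:**
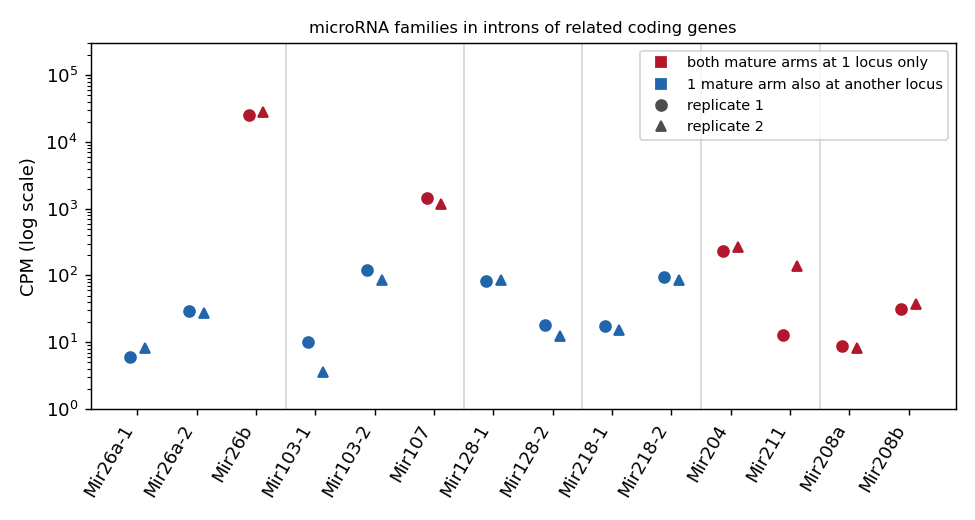
CPM on a log scale in each library for the mir-26 genes and 11 genes of families in introns of related coding genes, in red where both mature arms are found at 1 locus only and in blue where 1 arm is also found at another locus. Mir26b and Mir107 stand above the blue genes of their own families, and Mir208a and Mir208b are low although they share no arm.

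Other families also bear 1 seed on arms found at several loci and on arms found at 1 locus, and the examples given here were chosen after their values were seen. In the mir-30 family the most abundant single-locus gene, Mir30e, had 19272 CPM and the higher gene with a repeated arm, Mir30c-1, 93.2 CPM. In the let-7 family the most abundant of 7 single-locus genes, Mirlet7g, had 4382 CPM. The most abundant of 4 genes with a repeated arm, Mirlet7f-2, had 101 CPM. The single-locus Mirlet7b, at 6.57 CPM, was below Mirlet7f-2, so the order depended on the genes compared. Genes with a repeated arm could also be abundant, as Mir92-1 was at 8933 CPM. It lay below Mir92b at 23299 CPM, the most abundant of the 5 single-locus genes with this seed. It lay above Mir363 at 7843 CPM and Mir25 at 1065 CPM, which are also single-locus genes. In the mir-7 family the order was mixed as well. Mir7-1, of a repeated arm, was above the single-locus Mir7b in both libraries, at 282 and 208 CPM against 213 and 91.2 CPM, although their ranges overlapped. Mir7-2, also of a repeated arm, had 145 and 103 CPM, below Mir7b in replicate 1 and above it in replicate 2.

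The genes with RefSeq arms fell into 3 classes. Of the 56 with 1 repeated and 1 single arm, as in Mir26a-1 and Mir26a-2, 37 had at least 10 reads in both libraries, with a median of 90.0 CPM among them. Of the 813 with no repeated arm, as in Mir26b, 308 had as many, with a median of 167 CPM. Of the 47 in which every arm is repeated, 7 had as many, with a higher median of 419 CPM. Over all genes of the 3 classes, with no floor on reads, the medians were 35.8, 0.894 and 0 CPM in the same sequence. The order of the medians thus depended on the floor. Mir219a-2, with every arm repeated, was assigned 15572 and 20546 reads, so a repeated arm did not go with a low count in every gene. Whether the precursors that share its arms lie at separate places in the genome was not tested. Of the 56, 29 were above Mir26a-2 and 34 above Mir26a-1.

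The microRNAs known to act against REST and its phosphatases in neurons were few in these libraries, as counted. Mir124a-2 had 56 and 36 reads, Mir124a-3 16 and 34 and Mir124a-1 7 and 2, all copies of miR-124, which is known to repress Ctdsp1. Mir9-3 had 452 and 246 reads and Mir9-2 3 and 4, both copies of miR-9, which is known to repress REST, and both arms of the 2 genes are found at other loci. Mir9-1 is not among the counted genes. Of the 3 genes tested in this list, Mir124a-2 and Mir9-3 were called lower in replicate 2 (log2 ratios -0.78 and -1.03) and Mir124a-3 was not called (0.91, adjusted p = 0.066 by the exact test), with a median of -0.78 against -0.02 over all genes tested. As the test called 49.7% of all genes, with 26.6% of all genes lower, 2 of 3 says little about this list. These values carry the same limit as those of the miR-26a copies, and the amounts of miR-9 and miR-26a relative to miR-26b were not measured by them.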

How the data were processed

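Small RNA of 2 libraries was analysed. The deposited files hold raw counts of reads per microRNA gene, which the authors aligned to mm10 and quantified on annotation M4, per the descriptions deposited with the files. No source used here names the aligner or its settings. Rows that name no gene (57.8% and 60.9% of reads) were left out of library sizes. The 3 count columns have no names. The first equals the sum of the others in all 1973 gene rows and was used, and the second was taken as the gene's strand. Identifiers were matched without version to GENCODE M21 on GRCm38 (1894 of 1973). RefSeq mature arms matched 916 genes by symbol, and the RefSeq hairpins of the 3 members were identical to their GENCODE precursors. An arm was called repeated when its sequence occurs in more than 1 of 2202 M21 precursors. Hairpins were folded with RNAfold (ViennaRNA 2.7.2). Introns are numbered on the principal transcript (APPRIS) of each host.

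For log2 ratios, 0.5 reads were added and TMM (edgeR 4.0.16) scaled the libraries. The exact binomial test (two-sided, on genes whose summed reads reached 10) was adjusted by Benjamini-Hochberg over all tested genes at 0.05, and was tested on simulated data. The simulated counts had counting error only, with no spread between replicates, and were scaled by genes known to be unchanged. They therefore do not show the error rate of the test between the real libraries. The design has 1 group, so no test between conditions was made, and whether the replicate spread is biological or from library preparation cannot be told apart. The genes named are the members, 2 lists (families in introns of related coding genes, and microRNAs acting on REST and its phosphatases), 9 marker lists of cell types drawn from general knowledge and the 5 genes nearest to Mir26b in log2 ratio among those of mean CPM 1000 or more. Members and lists were chosen with earlier results of these data known, and the genes named as neighbours in rank, by seed, by arm class or by host were chosen after their values were seen. Alternatives were other scalings (DESeq2 1.42.0 size factors, total counts), added reads, filters, count columns, denominators and leaving out each replicate. Software was R 4.3.3 and, under Python 3.11.15, pandas 2.3.3, matplotlib 3.10.9, scipy 1.17.1 and numpy 2.4.6.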

Additional observations from a re-analysis of the deposited data

How the results depend on the processing

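Of 62 alternative values over 14 results, 49 kept their direction, their side of the threshold or their size to within the spread between replicates, and 13 moved. Some of the 49 could not have moved, because leaving out 1 of 2 replicates always stays within their spread. The family shares on the second count column were also fixed, as the third held 0 reads for the members. No call of a member changed: over 7 alternatives each, the log2 ratio ranged from 0.14 to 0.18 for Mir26b (adjusted p by the exact test at most 5.4e-101), from 0.41 to 0.45 for Mir26a-1 (0.39 to 0.60) and from -0.10 to -0.06 for Mir26a-2 (0.73 to 0.87). The number of genes called ranged from 227 to 240 against 241, but the share called went from 49.7% of 485 genes to 29.6% of 769 with no filter and 64.1% of 354 at 50 reads in sum, as other numbers of genes are tested. With DESeq2 size factors 120 genes were higher and 115 lower in replicate 2, against 112 and 129. Per all reads of the files, Mir26a-1 had 2.87, Mir26a-2 11.5, Mir26b 10977 and the family 10991 reads per 1000000. Without the most abundant gene in the denominator, Mir26a-2 had 32.2, Mir26b 31042 and the family 31082 CPM. On the third count column alone the 4 values were 0. Without the other genes that share a stretch of 20 bases with another locus, the rank of Mir26a-2 moved from 287 to 223 and that of Mir26a-1 from 353 to 274, because fewer genes are ranked, and Mir26b stayed at 8. Without replicate 1 or replicate 2, Mir26b had 28411 or 25699 CPM. No paired analysis was possible because there is 1 group. Depth limits the miR-26a copies, whose 20 to 100 reads give wide intervals. How many of the multiply mapped reads are miR-26a-5p was not tested.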
